A study of Homo sapiens with 6 samples.

Results

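KLK10 and 6 other kallikrein-related peptidase genes, KLK5, KLK6, KLK7, KLK8, KLK11 and KLK13, were followed in HCT116 cells given miR-224. The members, 7 of the 19775 genes measured, were chosen with earlier results of these data known, and 7 other measured tissue kallikreins form a separate list. Each member is given by all probe sets annotated with its symbol alone, 12 of the 54613 compared. KLK7, KLK8 and KLK10 each had 2, KLK13 had 3, and KLK5, KLK6 and KLK11 had 1. The miR-224 group was HCT116, an established human colon carcinoma line, transfected with 50 nM of a miR-224 precursor for 24 h, and the control group was the same line given 50 nM of control oligos for the same time. Each group held 3 expression arrays of total RNA, numbered 1 to 3 and described as pairs from 3 independent experiments, so each miR-224 array was set against the control array of its own experiment. All values are the deposited array values on the log2 scale, on which a difference of 1 is a doubling or a halving, and differences are miR-224 minus control. The question was how the transcripts of this protease family differed once cells received miR-224.

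Tissue kallikreins are secreted serine proteases, most of which cut after arginine or lysine as trypsin does, while some, KLK7 among them, cut as chymotrypsin does. They are made as inactive proenzymes that other proteases activate, and in skin KLK5 activates itself and KLK7 so that the bonds between surface cells are cut and the cells shed. KLK10, also called NES1 for normal epithelial cell specific 1, was first described as a transcript lost in breast tumour cells, and it has been reported as a target of miR-224 in ovarian cancer cells. Several kallikreins are made at raised levels in colon tumours.

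The strands of miR-224 are shown because they are the molecule whose precursor was given to the cells. The sequences are from RefSeq (GRCh38.p14, minus strand of chromosome X). In the mature strands the capitals mark the seed, bases 2 to 8 from the 5′ end, which is the part of a microRNA that pairs with a messenger RNA. In the hairpin the capitals mark both mature strands.
hsa-miR-224-5p, chrX:151958628-151958652: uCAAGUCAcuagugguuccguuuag
hsa-miR-224-3p, chrX:151958584-151958606: aAAAUGGUgcccuagugacuaca
MIR224 hairpin, chrX:151958578-151958658: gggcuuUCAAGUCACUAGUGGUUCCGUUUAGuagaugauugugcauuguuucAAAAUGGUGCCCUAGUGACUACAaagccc
The seed CAAGUCA of the 5p strand pairs with UGACUUG, and a strand that starts at the next base would have the seed AAGUCAC, which pairs with GUGACUU. Among the 2351 different mature sequences of the RefSeq table, 0 other microRNAs carried the seed CAAGUCA at these bases. Which bases of KLK10 or of the other members carry a match to a seed was not analysed here, as messenger RNA sequences were not used.

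The 7 members lie in the tissue kallikrein cluster of chromosome 19, a run of 15 genes in the RefSeq order KLK1, KLK15, KLK3, KLK2, KLK4, KLK5, KLK6, KLK7, KLK8, KLK9, KLK10, KLK11, KLK12, KLK13 and KLK14, with 1 other protein-coding gene, PPIAP59, between KLK4 and KLK5. KLK9 and KLK12 are the genes that interrupt the members' run, and the 1 probe set shared by KLK8 and KLK9 was left out. The promoter table of RefSeq held 11 windows for 6 of the members, KLK5, KLK6, KLK7, KLK10, KLK11 and KLK13, all on the minus strand, and their share of G and C ranged from 59.0% to 70.7%, against a median of 58.7% over 35116 windows. Each window spans 300 bases around a start of transcription, and the letters TATAAA, searched on both strands, stood in 0 of the 11 windows and in 11.5% of all windows.

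Experiment 1 stood apart in both groups. The probe set for the 5′ part of actin mRNA read 4.14 in miR-224 and 4.42 in control cells of experiment 1, against 12.5 and 12.5 in miR-224 cells and 12.3 and 12.3 in control cells of experiments 2 and 3, while the 3′ probe set read 12.4 to 12.5 on all 6 arrays. This low 5′ signal bears on both arrays of experiment 1, and its part in the results below was not tested. With each marker gene taken on its brightest probe set, the colon epithelium markers were uneven: KRT18, KRT19, EPCAM, KRT8 and CDH1 ranked in the top 25% of all probe sets by level, whereas CDX1, CDX2, KRT20, VIL1, LGALS4 and CDH17 did not, with CDH17 at the 22.8th percentile. Leukocyte markers, taken the same way, lay between the 19.7th and 46.9th percentile, and of the keratinocyte and fibroblast markers only KRT10 and COL1A1 reached the top 25%.

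KLK10 had the lowest log2 difference of the 12 probe sets, and it was carried by experiments 2 and 3. On its brighter probe set (209792_s_at) KLK10 read 6.17, 5.58 and 5.53 in miR-224 cells of experiments 1, 2 and 3, against 6.11, 6.28 and 7.04 in control cells. The miR-224 arrays of experiments 2 and 3 were the lowest of the 6, whereas that of experiment 1 lay just above its own control, so the groups overlapped. The arrays read RNA of whole cultures, in which fewer cells making a transcript and less of it per cell cannot be told apart. The mean was 5.76 ± 0.36 in miR-224 cells and 6.48 ± 0.50 in control cells (SD, n = 3 each). The differences within experiments were 0.06, -0.70 and -1.51, which on a linear scale are ratios of 1.05, 0.616 and 0.351. The controls themselves spanned 0.93 log2 units and the miR-224 arrays 0.64, so that the large difference of experiment 3 joined the highest control to the lowest miR-224 array.

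The fitted log2 difference of KLK10 was -0.72 ± 0.24 (SE; 95% interval -1.28 to -0.16). It did not pass the test over all probe sets (limma with experiment as a block, adjusted p = 0.41, unadjusted p = 0.018). The SE and interval of this fit draw on variances pooled over probe sets. From the 3 differences of KLK10 alone the SE was 0.455 (plain paired t test, unadjusted p = 0.26, adjusted p = 0.79). An exact sign-flip permutation test over the 3 pairs gave p = 0.5, where 0.25 is the smallest that 3 pairs allow. A difference this low or lower was found in 0.302% of all probe sets, and in 0.652% of those in the top 25% by level. KLK10 was proposed for study with results of these arrays known, so its place in that order is a description.

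The second probe set of KLK10 (215808_at) did not show the difference. It was dim, at 3.09, 3.08 and 3.04 in miR-224 cells and 3.15, 2.83 and 2.96 in control cells, and ranked at the 40.4th percentile of all probe sets by level. Its log2 difference was 0.09 ± 0.11 (SE), with -0.06, 0.25 and 0.08 in experiments 1, 2 and 3. A dim probe set may read little of the transcript, and the files give no detection call for either.

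**Figure D1:**
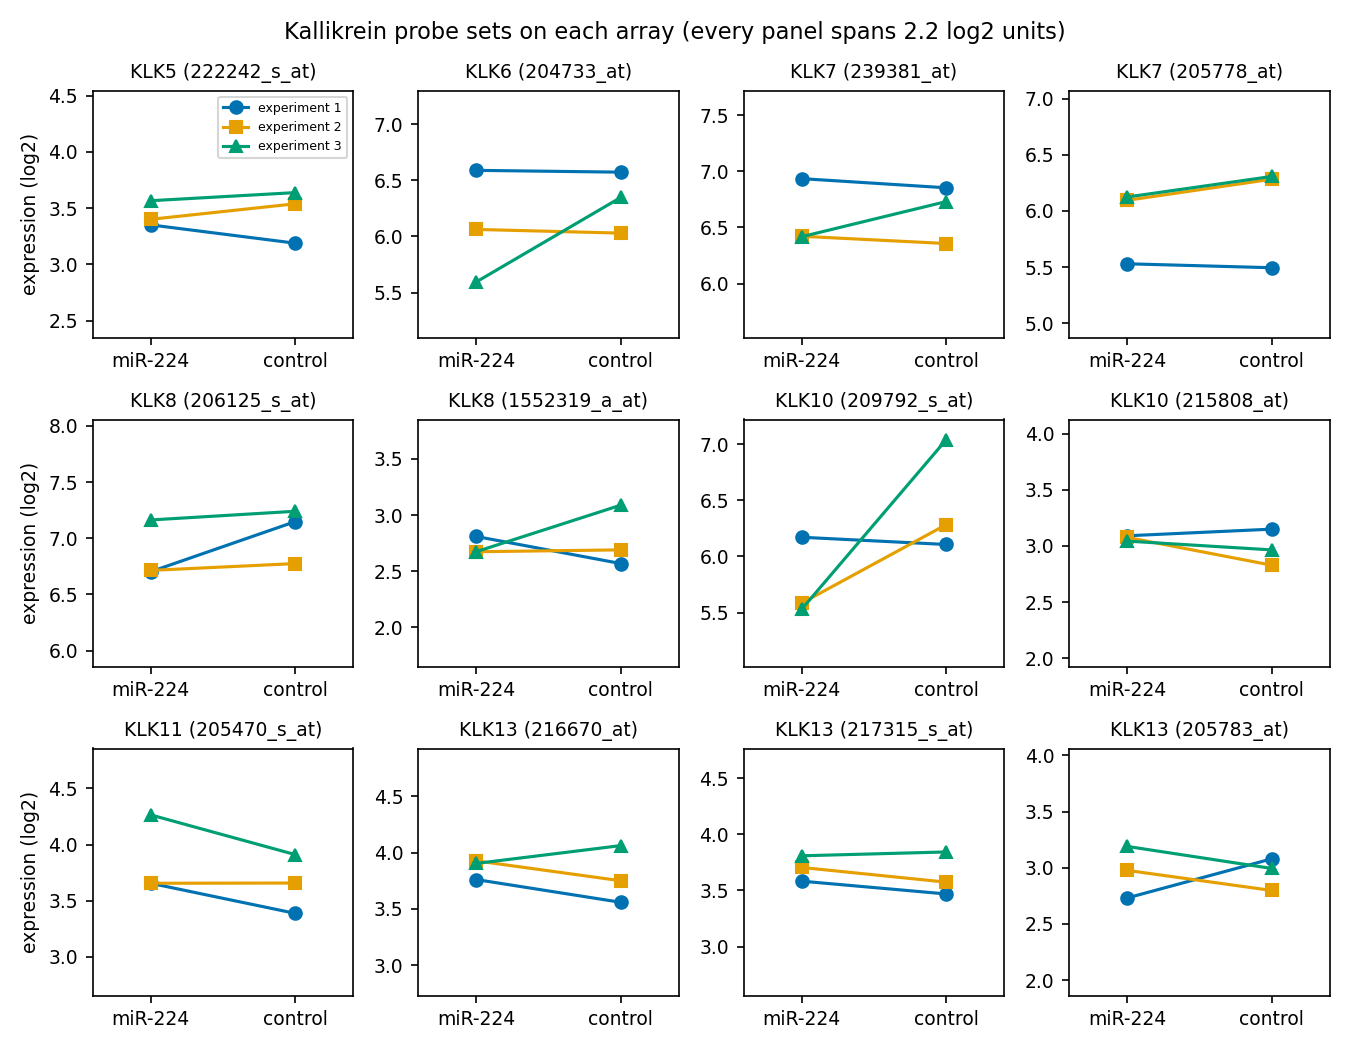
Expression (log2, y axis) of the 12 kallikrein probe sets in miR-224 cells (left) and control cells (right), with a line joining the 2 arrays of each experiment and every panel spanning the same number of log2 units. KLK10 on 209792_s_at stood at 6.17, 5.58 and 5.53 in miR-224 cells and 6.11, 6.28 and 7.04 in control cells, while most other lines are close to level.

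The other bright members, KLK6, KLK7 and KLK8, gave differences no larger than the spread between arrays. KLK6, a trypsin-like kallikrein best known from the nervous system, read 6.59, 6.06 and 5.59 in miR-224 cells against 6.57, 6.03 and 6.35 in control cells. Only experiment 3 differed by more than 0.05 on the log2 scale, at -0.75, and the fitted difference of -0.23 ± 0.16 (SE) did not pass (limma adjusted p = 0.69). Without experiment 3 the KLK6 difference was 0.025. KLK6 and KLK10 were thus both lowest in the miR-224 cells of experiment 3.

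KLK8, called neuropsin for its role in the brain, was the only member with a probe set lower in every experiment. Its brighter probe set (206125_s_at) read 6.70, 6.71 and 7.16 in miR-224 cells and 7.15, 6.77 and 7.24 in control cells. The groups overlapped, and experiment 1 gave the greatest difference at -0.45, against -0.06 and -0.08 in experiments 2 and 3, whereas in KLK10 experiment 1 was the one with no lower value. Its fitted log2 difference was -0.19 ± 0.12 (SE; limma adjusted p = 0.64), and 14.8% of all probe sets were lower in every experiment. The dimmer KLK8 probe set (1552319_a_at), at the 33.0th percentile, stood at 0.24, -0.02 and -0.42 in experiments 1, 2 and 3.

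KLK7, the chymotrypsin-like enzyme of the stratum corneum, had a pair of bright probe sets that gave small differences. The probe set 239381_at read 6.93, 6.42 and 6.42 in miR-224 cells and 6.85, 6.36 and 6.73 in control cells, a log2 difference of -0.06 ± 0.12 (SE). The probe set 205778_at read 5.53, 6.09 and 6.12 in miR-224 cells and 5.49, 6.28 and 6.31 in control cells, a log2 difference of -0.11 ± 0.11 (SE). In that probe set experiment mattered more than treatment: both arrays of experiment 1 were lower than the other 4, and the mean of the 2 arrays of an experiment spanned 0.70 log2 units between experiments. In the other KLK7 probe set both arrays of experiment 1 were instead the highest of the 6.

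KLK5, KLK11 and KLK13 were dim on all their probe sets, which ranked between the 38.8th and 55.9th percentile. KLK5, which starts the shedding cascade in skin, read 3.35, 3.40 and 3.57 in miR-224 cells and 3.19, 3.54 and 3.64 in control cells, a log2 difference of -0.02 ± 0.11 (SE). KLK11, a trypsin-like kallikrein, read 3.66, 3.66 and 4.26 in miR-224 cells and 3.39, 3.66 and 3.91 in control cells. It had the highest difference of the 12 probe sets, 0.21 ± 0.11 (SE), and did not pass (limma adjusted p = 0.60). The 3 probe sets of KLK13 had log2 differences of 0.07 ± 0.12, 0.07 ± 0.10 and 0.01 ± 0.13 (SE), and the last of them was lower in experiment 1 by -0.35 and higher in experiments 2 and 3 by 0.18 and 0.20.

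**Figure D2:**
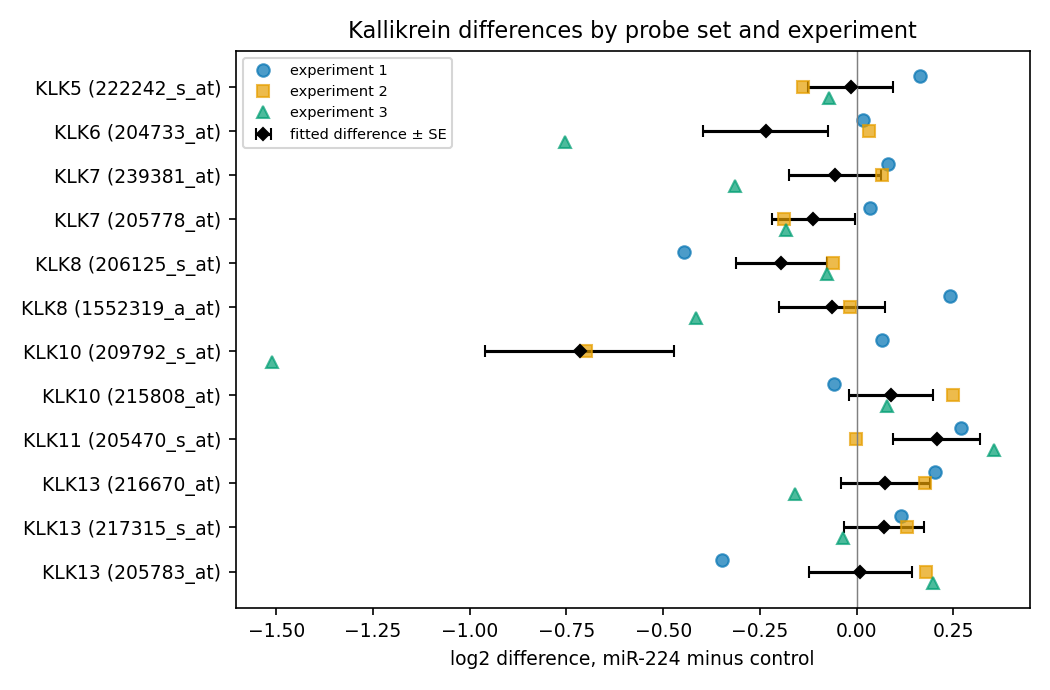
Log2 difference of miR-224 minus control (x axis) for each kallikrein probe set, with the fitted value ± SE as black diamonds and the 3 experiments as coloured points. The fitted value of KLK10 on 209792_s_at was -0.72 ± 0.24, with experiment 1 at 0.06 and experiment 3 at -1.51, and the other 11 fitted values lay between -0.23 and 0.21.

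Taking the 12 probe sets together, 0 passed at an adjusted p under 0.05 (limma with experiment as a block), as did 0% of all 54613. At an unadjusted p under 0.05 there was 1 of 12, KLK10, which is 8.33% of the members against 9.8% of all probe sets, so the share was near the background. Means were lower for 7 probe sets and higher for 5, where 48.5% of all probe sets were lower. The groups did not overlap for 0 of the 12, against 6.66% of all probe sets. The median log2 difference of the members was -0.04, against 0.01 over all probe sets, and it was 0.07, 0.02 and -0.12 in experiments 1, 2 and 3, where all probe sets had 0.00, 0.00 and 0.01. Leaving KLK10's 209792_s_at aside, the 95% intervals of the other 11 reached from -0.61 at the lowest to 0.47 at the highest. These intervals rest on variances pooled over probe sets, and larger differences lie outside them only on that footing. The 3 pairs of a probe set taken alone can set looser limits.

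The members fell into a brighter and a dimmer set. The brighter 5 probe sets, of KLK6, KLK7, KLK8 and KLK10, ranked from the 79.3rd to the 87.4th percentile. All 5, of which 2 were of KLK7, had a lower mean in miR-224 cells, against 53.7% of all probe sets in the top 25%. Only 1 of the 5, that of KLK8, was lower in every experiment. KLK6 and KLK7 on 239381_at were higher in 2 of the 3 experiments. Without experiment 3 their log2 differences were 0.025 and 0.073. The other 7 of the 12 probe sets ranked from the 33.0th to the 55.9th percentile and had differences from -0.06 to 0.21, with 5 higher. The top 25% was chosen as the dividing line after these values were seen. For 11 of the 12 probe sets, KLK10's 209792_s_at being the exception, the means of the experiments spanned more than the treatment difference, as they did for 86.1% of all probe sets.

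Without experiment 1, whose arrays had the low 5′ signal, the KLK10 difference was -1.11 ± 0.19 (SE), and it still missed the threshold (limma adjusted p = 0.067) in a fit that called 137 probe sets, 0.251% of all. With 1 probe set for each gene as well, an alternative added after the data were seen, KLK10 passed (-1.11 ± 0.18, limma adjusted p = 0.022), in a fit that called 174 genes, 0.88% of 19775, of which 147 (0.743%) fell. With an intensity trend and robust variances over all 6 arrays, KLK10 missed the threshold (limma adjusted p = 0.31) and 0 members passed, against 0.0513% of all probe sets. Both fits without experiment 1 leave 1 residual degree of freedom per probe set and lean on variances pooled over probe sets. Without experiment 3 the difference was -0.32 ± 0.19 (limma adjusted p = 0.71), and with the mean of both KLK10 probe sets it was -0.31 ± 0.13 (limma adjusted p = 0.48).

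**Figure D3:**
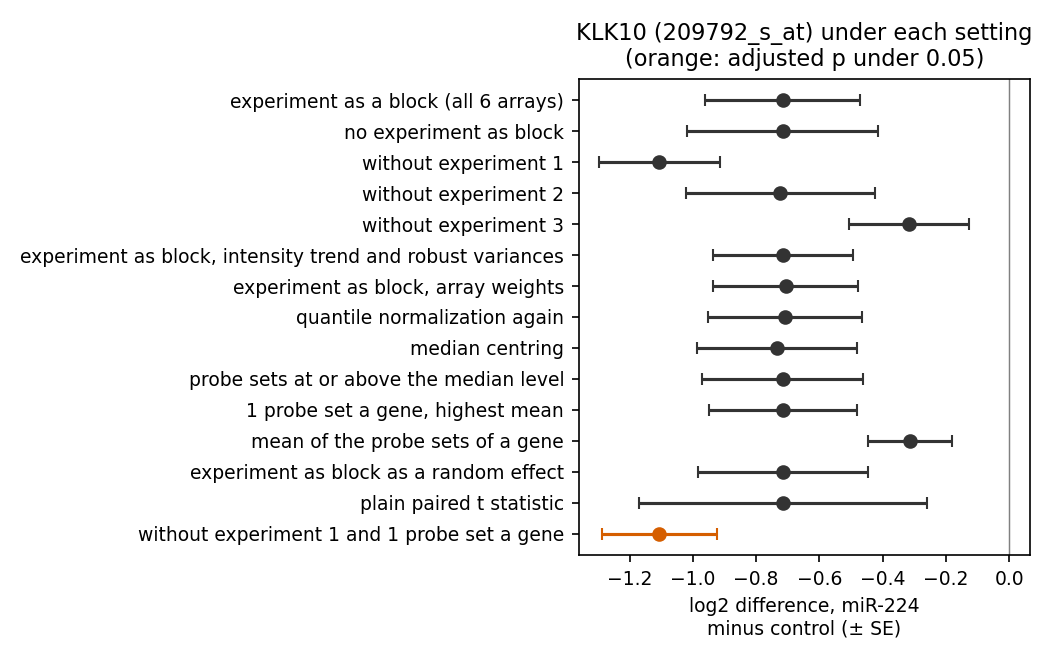
Log2 difference of KLK10, miR-224 minus control ± SE (x axis), under the analysis with experiment as a block and under 14 other settings (y axis), with orange marking an adjusted p under 0.05. All values were negative, from -1.11 to -0.31, and 1 setting passed. Settings that change only the variance, the test or which probe sets enter the fit repeat an estimate already shown.

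The genes whose levels over the 6 arrays were most like those of KLK10 (209792_s_at) were ranked by Pearson's r among 9887 other genes with a mean no lower than the median gene. The top 5 were DSG2, which encodes desmoglein-2 of desmosomes (r = 0.977), ZGPAT (0.976), the simple-epithelium keratin KRT7 (0.973), INTS3, a subunit of the Integrator complex (0.967), and STX12, a syntaxin of endosomes (0.963). With 6 arrays that share experiments, and this many genes ranked, high values are found readily and are given as a description. KRT7 differed by 0.21, -0.42 and -1.25 in experiments 1, 2 and 3, and DSG2 by 0.03, -0.39 and -0.73. Both shared with KLK10 a value above 0 in experiment 1 and the lowest value in experiment 3. They were picked for likeness on these same arrays, so a like pattern follows in part from the choice. Within the family, the likeness to KLK10 was 0.78 for the dim and 0.32 for the bright KLK8 probe set, 0.53 for KLK6, 0.43 and 0.19 for KLK7, and 0.32 for KLK5. It was 0.22, 0.10 and -0.33 for KLK13, -0.15 for KLK11 and -0.40 for the other probe set of KLK10.

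**Figure D4:**
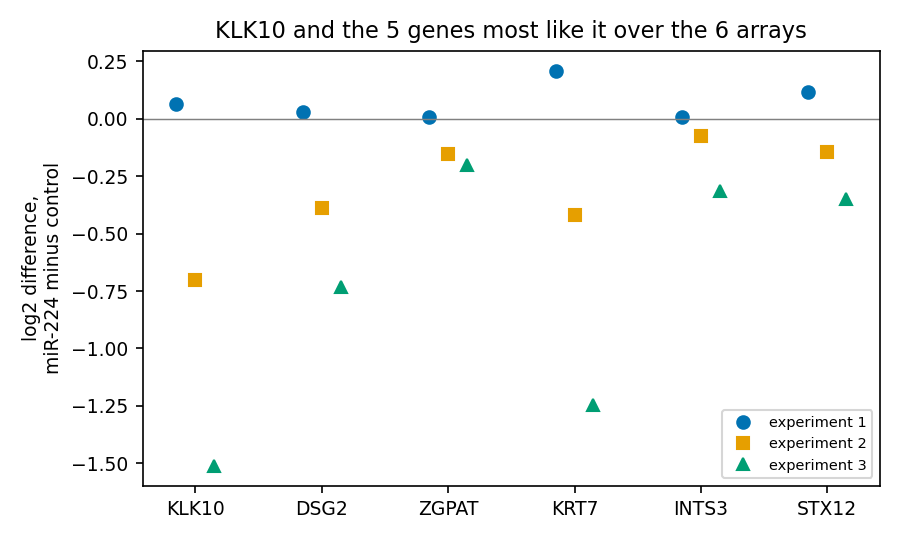
Log2 difference of miR-224 minus control (y axis) in each experiment for KLK10 and the 5 genes most like it over the 6 arrays. In all 6 genes the point of experiment 1 lies above 0 and that of experiment 3 is lowest, at -1.51 for KLK10 and -1.25 for KRT7. The 5 genes were picked for likeness on these same arrays, so a like pattern follows in part from the choice.

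Of the other tissue kallikreins, 7 of 8 genes were measured on 21 probe sets, of which 0 passed (limma with experiment as a block), 18 had a higher mean and 3 a lower one, with a median log2 difference of 0.09. At an unadjusted p under 0.05 there was 1 (4.76%, against 9.8% of all probe sets), and 48.5% of all probe sets had a lower mean. KLK12, which lies between KLK11 and KLK13, had the smallest p of them. Its probe set 220782_x_at read 4.59, 4.90 and 4.80 in miR-224 cells and 4.20, 4.52 and 4.59 in control cells, a log2 difference of 0.33 ± 0.10 (SE; limma adjusted p = 0.39). Its groups did not overlap, by a narrow margin, and other KLK12 probe sets differed by 0.13 and 0.12. KLK3, which encodes prostate-specific antigen, differed by 0.23 ± 0.10 on 204583_x_at and 0.07 on 204582_s_at but by -0.15 ± 0.10 on 231629_x_at. KLK4 differed by 0.25 ± 0.11 on 231782_s_at and by -0.01 to 0.11 on its other probe sets. KLK2 and KLK3 are close copies, and a name ending in x marks probes that can read related transcripts, so values of these probe sets may mix genes.

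The 10 measured genes next to the cluster, 5 on each side, had 14 probe sets, of which 0 passed (limma), 2 had an unadjusted p under 0.05 (14.3%, against 9.8% of all probe sets) and 10 were higher. VSIG10L had the greatest difference among them, 0.41 ± 0.13 (SE; limma adjusted p = 0.39), with 0.57, 0.07 and 0.60 in experiments 1, 2 and 3. SIGLEC7, a sialic acid receptor of immune cells, followed at 0.29 ± 0.11 on 217159_x_at, against 0.03 and 0.05 on its other probe sets, and the synaptic scaffold gene SHANK1 at 0.22 ± 0.11. Of these probe sets, 0 ranked in the top 25% by level.

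Inhibitors that act on kallikreins and related proteases had 14 of 16 genes measured on 21 probe sets, of which 0 passed (limma), 14 were higher and 7 lower, with a median log2 difference of 0.05 and 1 at an unadjusted p under 0.05 (4.76%, against 9.8% of all probe sets). The protease trap A2M, alpha-2-macroglobulin, on 1558450_at read 3.50, 3.48 and 3.32 in miR-224 cells and 3.91, 3.69 and 3.66 in control cells, a difference of -0.32 ± 0.10 (SE; limma adjusted p = 0.39), at a dim level, while its other probe set, 217757_at, differed by 0.11 ± 0.11. The secreted inhibitor SLPI differed by -0.26 ± 0.13 and SPINK6 by 0.13 ± 0.11. SPINT1 and SPINT2, the membrane-bound inhibitors of matriptase and hepsin, were bright and differed by 0.08 ± 0.11 on 202826_at and 0.12 ± 0.11 on 210715_s_at.

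Other trypsin-like proteases, all 17 measured on 34 probe sets, had 0 that passed (limma), 2 at an unadjusted p under 0.05 (5.88%, against 9.8% of all probe sets), 21 higher and 13 lower. TMPRSS2, a membrane serine protease of epithelia, had the smallest p. Its probe set 205102_at read 5.15, 5.61 and 5.81 in miR-224 cells and 5.00, 5.12 and 5.22 in control cells, a log2 difference of 0.41 ± 0.12 (SE; limma adjusted p = 0.35), with the larger differences in experiments 2 and 3, at 0.48 and 0.58, against 0.15 in experiment 1. The other TMPRSS2 probe sets were dimmer and differed by 0.18, 0.04 and -0.10. F2, the prothrombin gene, differed by 0.34 ± 0.13, and CORIN, a protease that processes natriuretic peptides, by -0.24 ± 0.11 on 239261_s_at, against -0.18 and -0.01 on its other probe sets. ST14, which encodes matriptase, differed by 0.09 ± 0.10 on its brightest probe set 202005_at.

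Receptors and substrates of kallikreins had 17 of 18 genes measured on 34 probe sets, of which 0 passed (limma), 22 were higher and 12 lower. Among those with the smallest p, DSG2 encodes a desmosomal cadherin. DSG2 on 1553105_s_at read 3.16, 7.83 and 8.00 in miR-224 cells and 3.29, 8.29 and 8.92 in control cells, a log2 difference of -0.50 ± 0.15 (SE; limma adjusted p = 0.36), and both of its experiment 1 arrays read far lower than the other 4. Its other probe set, 217901_at, read 9.22, 8.89 and 8.80 in miR-224 cells and 9.19, 9.28 and 9.53 in control cells, without that loss in experiment 1, and differed by -0.36 ± 0.15. The desmosome and cornified-layer genes DSG1, DSC1 and CDSN were dim, at the 39.7th percentile or lower. DSG1 differed by 0.19 on 206642_at, CDSN by 0.23 and 0.03 on 206192_at and 206193_s_at, and DSC1 by -0.05 on 207324_s_at. CDH1, the E-cadherin gene, differed by -0.36 ± 0.12 on 201130_s_at. That probe set read 2.98 in miR-224 and 3.11 in control cells of experiment 1, against 5.15 to 5.67 on the other arrays. On 201131_s_at CDH1 differed by -0.25 ± 0.14, with 0.02, -0.17 and -0.60 in experiments 1, 2 and 3. The antimicrobial peptide gene CAMP, whose product KLK5 and KLK7 cut, differed by 0.29 ± 0.10 at a dim level. At an unadjusted p under 0.05 there were 5 of 34, or 14.7%, against 9.8% of all probe sets.

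Receptors for steroids and vitamin D, which regulate several kallikrein genes, had 6 of 7 genes measured on 27 probe sets, with 0 that passed (limma), 4 at an unadjusted p under 0.05 (14.8%, against 9.8% of all probe sets), 16 higher and 11 lower. ESR2 on 211118_x_at differed by 0.34 ± 0.13 (SE) and on its other probe sets by -0.16 to 0.24. VDR on 204255_s_at differed by 0.27 ± 0.12 and on its other probe sets by 0.03 to 0.18. The glucocorticoid receptor gene NR3C1 on 201865_x_at differed by -0.47 ± 0.20 (limma adjusted p = 0.50), with -1.04, 0.18 and -0.55 in experiments 1, 2 and 3, so its sign was not shared by the experiments, and its other probe sets differed by -0.08 to -0.04.

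**Figure D5:**
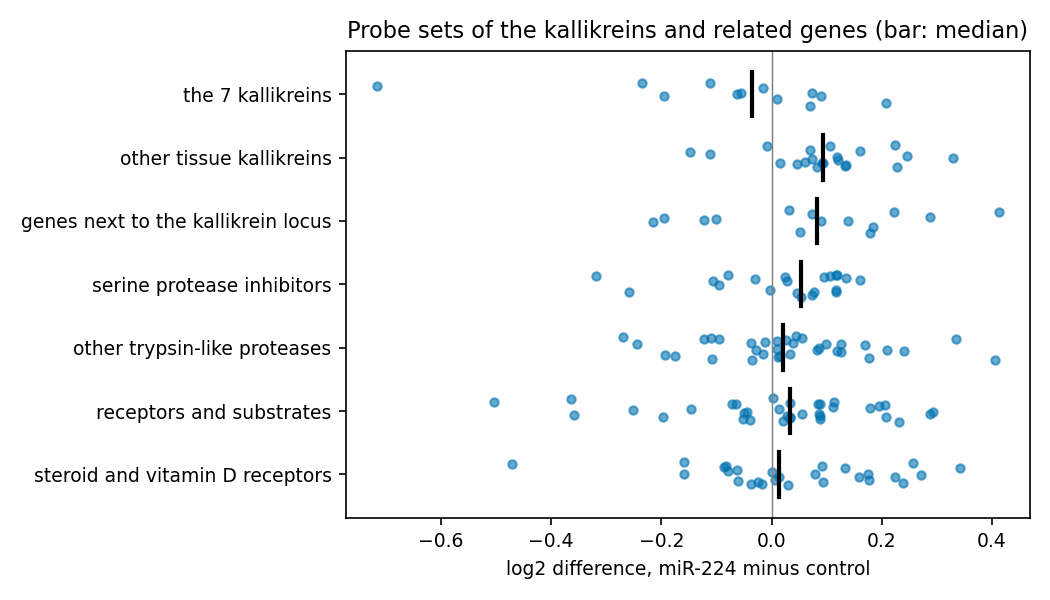
Log2 difference of miR-224 minus control (x axis) for each probe set of the 7 kallikreins and of 6 lists of related genes (y axis), with a bar at the median. KLK10 at -0.72 is the lowest point in the plot, and the medians lay between -0.04 and 0.09.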

How the data were processed

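The deposited values are log2 expression of 54675 probe sets on 6 Affymetrix arrays, made by the authors with RMA and Partek, per the submitters' processing notes; their versions are not stated in the labels. Base 2 was read from the values, which reach 13.6, above the natural log of the largest 16-bit scanner reading (11.1). RMA makes arrays alike, so only differences relative to the bulk of probe sets are seen. No fit used the 62 control probe sets. Of the other 54613, 41091 had 1 gene symbol, 1801 several and 11721 none in the platform annotation. Each was fitted with limma 3.58.1 in R 4.3.3 (lmFit, eBayes, two-sided, Benjamini-Hochberg over all probe sets, threshold 0.05) with experiment as a block, leaving 2 residual degrees of freedom; with 6 arrays, their number limits the precision. The series describes pairs, and deviations from group means correlated at 0.902, 0.734 and 0.783 between same-numbered arrays, and at -0.777 to 0.474 otherwise. The code was tested on simulated data.

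All member probe sets are named, and of each other list up to 3 with the smallest unadjusted p; further probe sets were added after their values were seen. The members and lists were chosen with earlier results of these data known. Percentiles rank a probe set's mean among all probe sets and do not compare amounts of transcripts. Not analysed here are KLK9, SPINK5, SPINK9, F2RL1, 2 keratinocyte and 2 leukocyte markers, and 1 further gene is not reported here. The alternatives were the fit without the block, each experiment left out, other variance settings, array weights, other normalizations, a filter on dim probe sets, 1 value a gene, a random block and a plain paired statistic. Figures were drawn with matplotlib 3.10.9.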

Additional observations from a re-analysis of the deposited data

How the results depend on the processing

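KLK10 (209792_s_at) was lower in miR-224 cells under all 14 alternatives, from -1.11 to -0.31 on the log2 scale, and missed the threshold in 13 (adjusted p up to 1). Not all of them could move the estimate. The fits without the block, with a random block, with trend and robust variances and with the plain paired statistic keep the -0.72. So do the filter on dim probe sets and 1 probe set a gene over all 6 arrays. Their sign therefore adds nothing on direction. With each experiment left out in turn, the KLK10 difference ranged from -1.11 to -0.32. Without the replicate block it was -0.72 ± 0.30 (limma adjusted p = 1) and the fit called 0 probe sets, so the block changed no call. KLK10 passed only without experiment 1 and with 1 probe set a gene, added after the data were seen (-1.11, limma adjusted p = 0.022), which made 1 member called of 7 genes and 174 genes called in all. Over all probe sets without experiment 1, its limma adjusted p was 0.067. The number of probe sets called was 0 to 137 with each experiment left out, 28 with an intensity trend and robust variances, and 0 in each other fit over all 6 arrays. The median of the members was 0.05 without experiment 3 and -0.09 without experiment 1.

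Members with small differences changed sign. With each experiment left out in turn, KLK13 on 205783_at ranged from -0.085 to 0.19, KLK5 from -0.11 to 0.045, KLK6 from -0.37 to 0.025, KLK7 on 239381_at from -0.12 to 0.073 and KLK8 on 1552319_a_at from -0.22 to 0.11. KLK13 on 205783_at was -0.019 after quantile normalization again and -0.0092 after median centring; the cause was not tested. With 3 pairs, differences smaller than the intervals above cannot be told from 0. Without detection calls, whether the dim probe sets read their transcripts is not known.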
